A study of Oryza sativa with 12 samples.

Results

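The genes described here are 10 rice loci of abscisic acid (ABA) signalling, 5 for bZIP transcription factors and 5 for protein phosphatases 2C of clade A (PP2Cs). Their probes were found by name, as every probe whose name begins with one of the 10 loci. The rule uses no measured value, but the loci were listed with earlier results of these data known. The choice took 15 of the 42418 probes on the array, and 10 of the 30218 genes or unplaced probes these stand for. The files give the loci without gene names, so the genes are called by locus and by class.

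The samples were leaves of 2 rice cultivars, FR13A and Goda Heenati, and FR13A is a landrace known for surviving under water. Submerged seedlings were 14 d old when they went under water 70 cm deep, and they were harvested after 3 d. At the start, the shoot tips lay 52.7 ± 2.3 cm below the surface in FR13A and 45.9 ± 2.9 cm below it in Goda Heenati. The 4 groups were submerged FR13A, control FR13A, submerged Goda Heenati and control Goda Heenati, with 3 samples each, and the controls stood in a tank that held no water. No group carried a transgene or a mutation by its label. Each sample was RNA pooled over the leaves of about 20 plants, hybridised to its own one-colour (Cy3) Agilent rice array. The submitters call the samples biological replicates.

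ABA is a stress hormone that closes stomata and holds back growth and germination. Its receptors, the PYR/PYL/RCAR proteins, bind ABA and then block the clade A PP2Cs, which otherwise keep kinases of the SnRK2 family inactive. Freed SnRK2 kinases phosphorylate bZIP factors of group A, and these switch on genes with ABA-responsive elements, such as those for dehydrins and other late embryogenesis abundant (LEA) proteins. Clade A PP2Cs are thus brakes on the pathway, and transcripts of many of them are known to rise with ABA, which closes a feedback loop. In rice, shoot ABA is known to fall under water.

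Signals are given as scaled log2 signal, that is, log2 of the processed spot signal minus the array's 75th percentile, so that 0 is the 75th percentile and 1 unit is a factor of 2. Each sample is listed in the order of replicates 1, 2 and 3, which were also slides 1, 2 and 3, each with 1 array of every group. Responses are log2 differences, submerged minus control, with the standard error (SE). A gene was called if its limma p, adjusted over all 22744 genes tested, was under 0.05 and its change at least 2-fold. The values of different genes come from different probes, so no level is set against that of another gene.

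Between 30643 and 34291 probes per array were well above background. On slide 1, which was scanned on another day, 1837 to 2406 probes per array were saturated, and no spot of the 10 genes was. The saturation value was 65527 on slide 1, against 778877 on slide 2 and 779012 on slide 3. All 10 genes had a probe that passed the filter, and 13 of their 15 probes did. All 6 mesophyll markers were well above background on all 12 arrays, and none was called in either cultivar. Their SD within a group reached 2.36 log2 units, so the lack of calls carries little weight. That SD and the sums below pool slides with unlike saturation values, whose part in the spread was not tested. With the array's 75th percentile set to 1 on a linear scale, their signals summed to 42.0 to 504 in submerged FR13A and 41.0 to 463 in control FR13A, and 40.0 to 389 in submerged Goda Heenati and 31.5 to 443 in control Goda Heenati. Of the 4 root markers, 2 were well above background on all arrays of some group and 2 were not. On that scale the 2 summed to 0.0240 to 0.0518 in submerged FR13A and 0.00890 to 0.0245 in control FR13A, and 0.0442 to 0.0698 in submerged Goda Heenati and 0.0152 to 0.0329 in control Goda Heenati. The root marker Os01g0657100 was called higher in submerged Goda Heenati (2.52 ± 0.54, limma adjusted p = 0.00677) and was at 1.43 in FR13A, not called. The other measured root marker, Os02g0662000, went the other way, at -1.64 in Goda Heenati and -0.17 in FR13A, and was called in neither. The part of these markers in the results below was not tested.

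After 3 d under water, 4 of the 5 PP2Cs (Os01g0583100, Os01g0656200, Os03g0268600 and Os09g0325700) fell in both cultivars, and the remaining one, Os05g0572700, rose in both. The falls ran between 3.51-fold and 13.9-fold in FR13A and between 6.73-fold and 30.3-fold in Goda Heenati, with 3 samples a group. Among the bZIPs, Os09g0456200 fell 2.76-fold in FR13A and 2.98-fold in Goda Heenati, Os01g0859300 rose 3.33-fold in Goda Heenati, and the other bZIP results were not called. In bulk leaf RNA, fewer cells of a type and less RNA per cell cannot be told apart.

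In FR13A, 6 of the 10 genes were called (1 higher and 5 lower), where 21.8% of all genes tested were called (10% higher and 11.8% lower). In Goda Heenati, 7 of the 10 were called (2 higher and 5 lower), where 20.6% of all genes were called (9.08% higher and 11.5% lower). The genes called higher, Os05g0572700 in both cultivars and Os01g0859300 in Goda Heenati, passed the filter only through the submerged groups. The submerged and control arrays did not overlap for 9 of the 10 genes in FR13A (3 higher and 6 lower), against 20.0% of all genes higher and 20.0% lower. In Goda Heenati they did not overlap for 8 (3 higher and 5 lower), against 21.7% of all genes higher and 19.8% lower. The median response of the 5 PP2Cs was -2.99 in FR13A and -2.95 in Goda Heenati, that of the 5 bZIPs -0.15 and -0.36, and that of all genes 0.05 and 0.09.

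**Figure D1:**
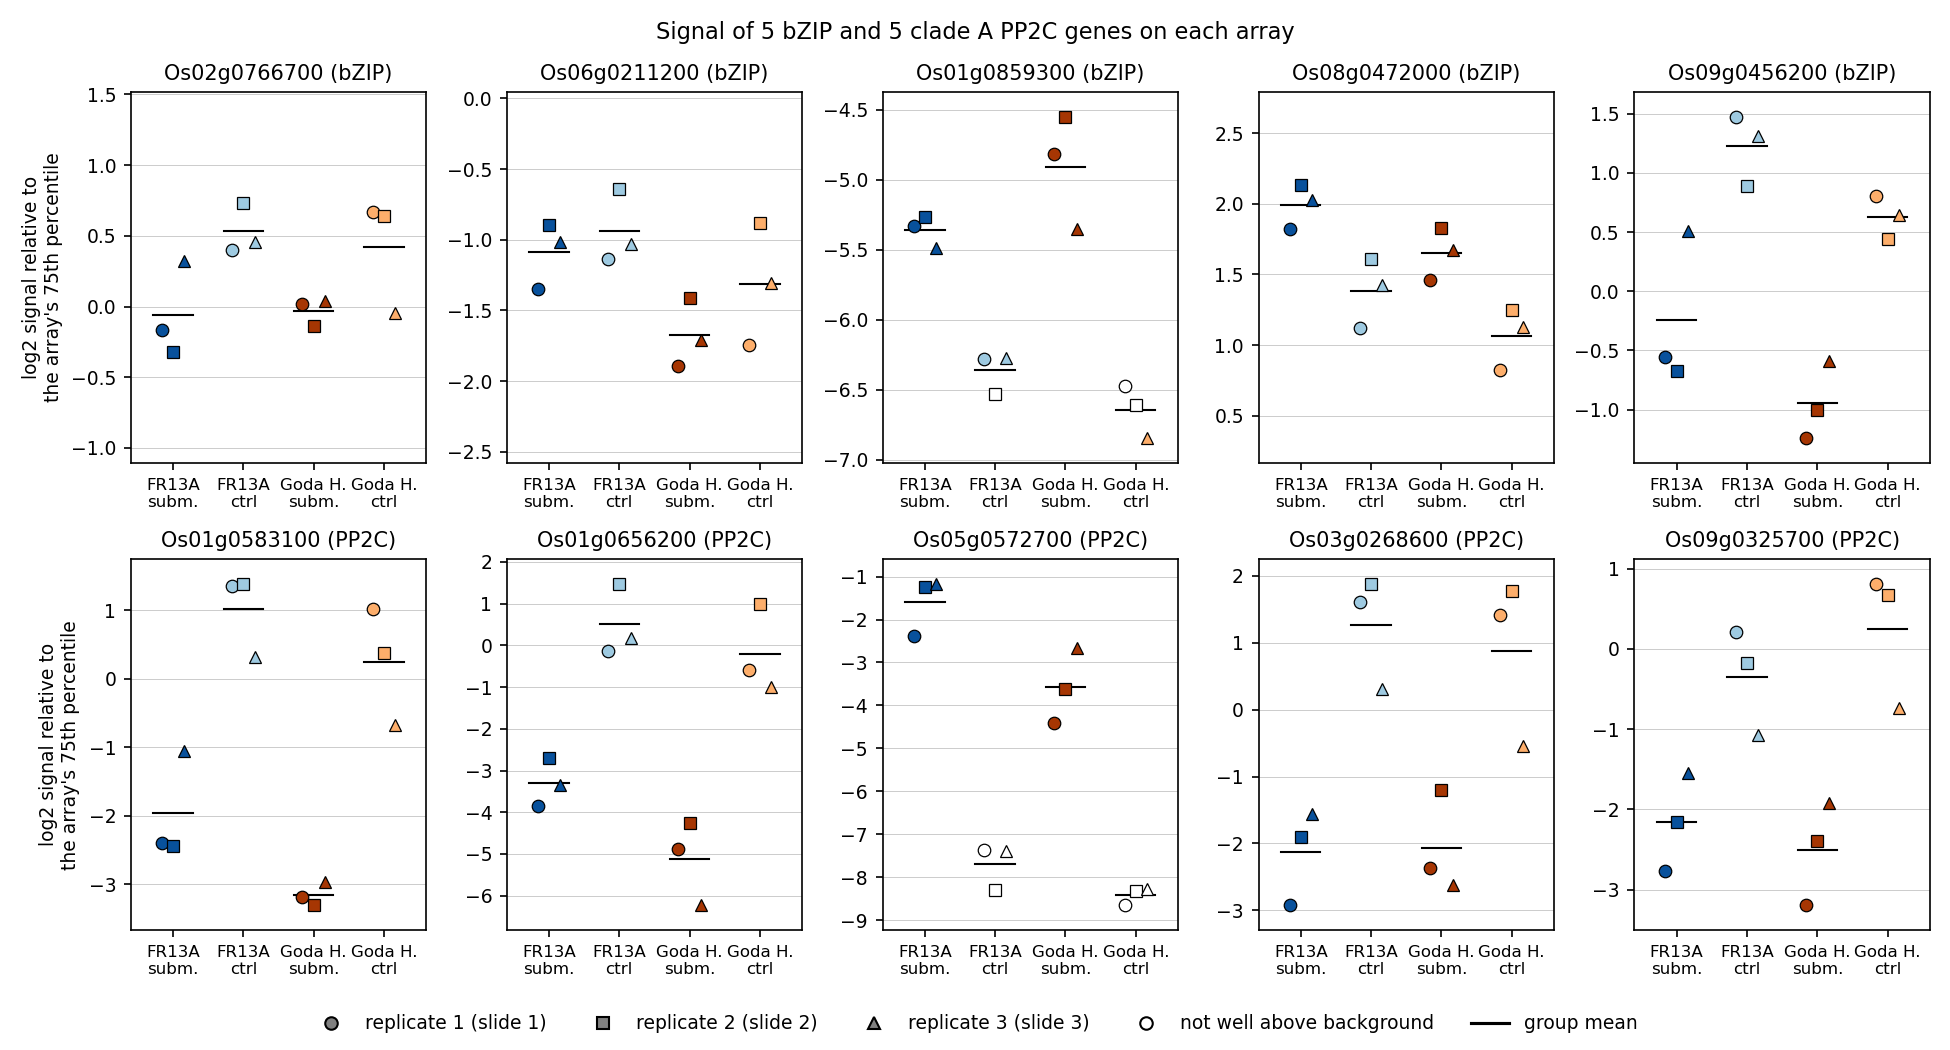
Scaled log2 signal of the 5 bZIP genes (top) and the 5 PP2C genes (bottom) on each of the 12 arrays, by group, with the marker shape for the slide, open markers for arrays where the probe was not well above background, and a bar for the group mean. In all 5 PP2C panels the submerged arrays of each cultivar lie apart from its control arrays, above them for Os05g0572700 and below them for the other 4, and in the top row the bZIP Os06g0211200 overlaps in both cultivars.

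Os01g0656200 showed the deepest PP2C fall in Goda Heenati and in FR13A. Its scaled log2 signal was -3.85, -2.69 and -3.35 in submerged FR13A, against -0.13, 1.46 and 0.16 in control FR13A. In Goda Heenati it was -4.89, -4.25 and -6.23 in submerged leaves, against -0.58, 0.99 and -1.01 in control leaves. Every submerged array lay below every control array of its cultivar. The response was -3.80 ± 0.66 in FR13A (13.9-fold lower, limma adjusted p = 0.0023) and -4.92 ± 0.66 in Goda Heenati (30.3-fold lower, adjusted p = 0.000528). Among the 22744 responses ranked from the lowest, that placed it at 322 in FR13A and at 140 in Goda Heenati. The probe stayed well above background on all 12 arrays, so both ends of the change were measured. With normexp background correction the FR13A call was lost (-2.94, adjusted p = 0.056). It was kept with normexp input corrected for spots dimmer than their local background, as were all 13 submergence calls of the 10 genes. Slide by slide the fall was even, between -4.16 and -3.51 in FR13A and between -5.24 and -4.30 in Goda Heenati.

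Os01g0583100, another of the phosphatases that brake ABA signalling, had scaled log2 signals of -2.41, -2.44 and -1.06 in submerged FR13A, against 1.36, 1.38 and 0.32 in control FR13A. They were -3.19, -3.31 and -2.97 in submerged Goda Heenati, against 1.02, 0.38 and -0.67 in control Goda Heenati. The submerged arrays were lower throughout, and the 3 submerged Goda Heenati arrays lay within a narrow band. The response was -2.99 ± 0.50 in FR13A (7.95-fold lower, limma adjusted p = 0.00188) and -3.40 ± 0.50 in Goda Heenati (10.5-fold lower, adjusted p = 0.000882). The fall was smallest on slide 3, -1.38 in FR13A and -2.30 in Goda Heenati, where in both cultivars the control array was the lowest of its group and the submerged array the highest.

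Os03g0268600 had scaled log2 signals of -2.92, -1.90 and -1.56 in submerged FR13A, against 1.60, 1.87 and 0.31 in control FR13A. In Goda Heenati they were -2.37, -1.21 and -2.62 in submerged leaves, against 1.41, 1.78 and -0.54 in control leaves. The control array of slide 3 was the lowest of its group in both cultivars, and it still lay above every submerged array. The response was -3.39 ± 0.67 in FR13A (10.5-fold lower, limma adjusted p = 0.00451) and -2.95 ± 0.67 in Goda Heenati (7.73-fold lower, adjusted p = 0.00938). On slide 3 alone it was -1.87 in FR13A and -2.08 in Goda Heenati. Without slide 1, with 2 samples a group, neither was called (-2.82, adjusted p = 0.101, and -2.53, adjusted p = 0.132).

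Os09g0325700 showed the smallest of the 4 falls. Its scaled log2 signals were -2.76, -2.15 and -1.55 in submerged FR13A, against 0.21, -0.18 and -1.07 in control FR13A. For Goda Heenati they were -3.20, -2.39 and -1.92 in submerged leaves, against 0.81, 0.68 and -0.73 in control Goda Heenati. On slide 3 the submerged and control arrays came closest, 0.48 apart in FR13A and 1.18 apart in Goda Heenati, still with submerged leaves lower. The response was -1.81 ± 0.52 in FR13A (3.51-fold lower, limma adjusted p = 0.0269) and -2.75 ± 0.52 in Goda Heenati (6.73-fold lower, adjusted p = 0.00377). The FR13A call was lost without FR13A submerged replicate 1 (-1.51, adjusted p = 0.0975), FR13A submerged replicate 2 (-1.81, adjusted p = 0.0762), FR13A control replicate 1 (-1.53, adjusted p = 0.0938) or FR13A control replicate 2 (-1.73, adjusted p = 0.0666). With normexp background correction it was lost too (-1.17, adjusted p = 0.21), though kept with corrected normexp input. Without slide 1 the call was lost in both cultivars (-1.23, adjusted p = 0.204 in FR13A, and -2.13, adjusted p = 0.0619 in Goda Heenati).

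Os05g0572700 went the other way. Its scaled log2 signal was -2.38, -1.24 and -1.17 in submerged FR13A, against -7.36, -8.31 and -7.39 in control FR13A. It was -4.40, -3.62 and -2.67 in submerged Goda Heenati, against -8.66, -8.33 and -8.28 in control Goda Heenati. The probe was well above background on all 6 submerged arrays and on none of the 6 control arrays, so the control values are bounds. Measured against the higher of its own control signal and the lowest signal well above background on each array, the transcript stood at least 46.4-fold higher in FR13A (limma adjusted p = 2.32e-05) and at least 12.9-fold higher in Goda Heenati (adjusted p = 8.53e-05). These bounds, 5.53 and 3.69 on the log2 scale, hold for the main processing only. Over 9 alternative settings the fitted response ran from 4.20 to 6.65 in FR13A and from 2.83 to 5.16 in Goda Heenati. It was called in all 9. The locus has another probe, which stayed too dim to count as well above background on each of the 12 arrays, so the rise rests on a single probe.

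**Figure D2:**
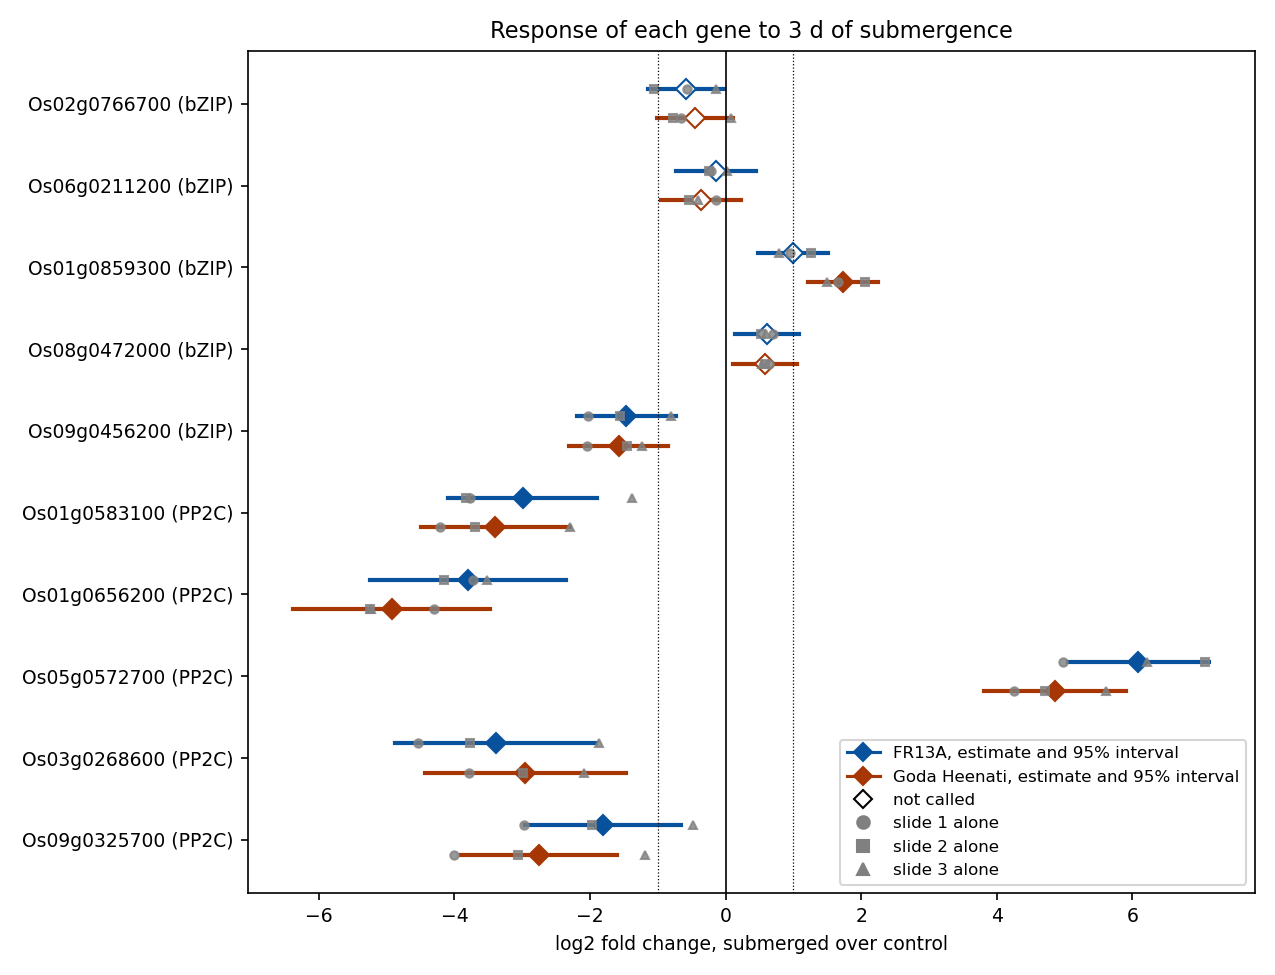
Log2 response to submergence (submerged over control) of each of the 10 genes in FR13A (blue, upper row of each pair) and Goda Heenati (brown, lower row), with the limma estimate as a diamond (open if not called), its 95% confidence interval as a line, the difference on each slide alone as grey markers, and dotted lines at a factor of 2. Among the PP2Cs only Os05g0572700 lies right of 0, and for Os01g0583100, Os03g0268600 and Os09g0325700 the slide 3 marker lies nearest to 0 in both cultivars.

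Of the bZIPs, the end of the pathway that binds DNA, Os09g0456200 was called lower in both cultivars. Its scaled log2 signal was -0.56, -0.67 and 0.51 in submerged FR13A, against 1.47, 0.89 and 1.31 in control FR13A. The submerged Goda Heenati arrays gave -1.24, -1.01 and -0.59, against 0.80, 0.44 and 0.65 in control Goda Heenati. The groups did not overlap in either cultivar, although the FR13A submerged array of slide 3 stood well above the other two. The response was -1.46 ± 0.33 in FR13A (2.76-fold lower, limma adjusted p = 0.00855) and -1.58 ± 0.33 in Goda Heenati (2.98-fold lower, adjusted p = 0.00607). Without slide 1, neither was called (-1.18, adjusted p = 0.132 in FR13A, and -1.34, adjusted p = 0.102 in Goda Heenati). With normexp background correction the FR13A call was lost (-1.30, adjusted p = 0.055), though kept with corrected normexp input.

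Os01g0859300 was a dim bZIP transcript that rose in Goda Heenati. Its scaled log2 signal was -5.33, -5.27 and -5.49 in submerged FR13A, against -6.28, -6.53 and -6.27 in control FR13A. In submerged Goda Heenati it was -4.82, -4.55 and -5.35, against -6.47, -6.61 and -6.84 in control Goda Heenati. It was well above background on all 6 submerged arrays, on 2 of the 3 FR13A control arrays and on 1 of the 3 Goda Heenati control arrays, and all submerged arrays were brighter than all control arrays. Its probe thus passed the filter only through the submerged groups. In Goda Heenati the response was 1.74 ± 0.23 (3.33-fold higher, limma adjusted p = 0.00054). In FR13A it was 0.999 ± 0.232 with an adjusted p of 0.0102, and at 1.999-fold it stopped just short of the 2-fold rule. It was called in FR13A with quantile normalization (1.14), in the authors' deposited table (1.13), and without FR13A submerged replicate 3 (1.06), FR13A control replicate 1 (1.04) or FR13A control replicate 3 (1.04). The difference between the cultivars' responses was -0.74 (95% interval -1.46 to -0.01, adjusted p = 0.9999), so a difference was not shown. With normexp background correction the Goda Heenati call was lost (1.29, adjusted p = 0.464) and the difference between the responses turned to 0.82. The Goda Heenati call was kept with corrected normexp input.

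The other 3 bZIPs were not called in either cultivar. Os08g0472000 had scaled log2 signals of 1.82, 2.14 and 2.02 in submerged FR13A, against 1.12, 1.61 and 1.42 in control FR13A. In submerged Goda Heenati it had 1.46, 1.83 and 1.67, against 0.82, 1.25 and 1.13 in control Goda Heenati. All submerged arrays were brighter than the controls of their cultivar, by 0.53 to 0.70 on each slide in FR13A and 0.54 to 0.64 in Goda Heenati. The response was 0.61 ± 0.21 in FR13A (limma adjusted p = 0.0577) and 0.59 ± 0.21 in Goda Heenati (adjusted p = 0.0692). With the slide as a block the adjusted p was 0.0050 and 0.00625, and the rises, 1.53-fold and 1.50-fold, stayed under the 2-fold rule. Its 2 other kept probes gave 0.56 and 0.66 in FR13A and 0.58 and 0.53 in Goda Heenati, and its remaining probe was not kept.

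Os02g0766700 had scaled log2 signals of -0.17, -0.32 and 0.32 in submerged FR13A, against 0.40, 0.73 and 0.46 in control FR13A. In submerged Goda Heenati it had 0.01, -0.14 and 0.04, against 0.67, 0.64 and -0.04 in control Goda Heenati. The groups stood apart in FR13A and overlapped in Goda Heenati through the control array of slide 3. The response was -0.59 (95% interval -1.15 to -0.03, limma adjusted p = 0.111) in FR13A and -0.45 (95% interval -1.01 to 0.11, adjusted p = 0.224) in Goda Heenati, so a fall of 2-fold lies inside both intervals.

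Os06g0211200 had scaled log2 signals of -1.35, -0.89 and -1.01 in submerged FR13A, against -1.14, -0.64 and -1.03 in control FR13A. In submerged Goda Heenati it had -1.89, -1.42 and -1.71, against -1.75, -0.88 and -1.31 in control Goda Heenati. The groups overlapped in both cultivars. The response was -0.15 (95% interval -0.74 to 0.44, limma adjusted p = 0.721) in FR13A and -0.36 (95% interval -0.95 to 0.23, adjusted p = 0.357) in Goda Heenati, and both intervals stop short of a 2-fold change. Its other probe gave -0.27 and -0.40.

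**Figure D3:**
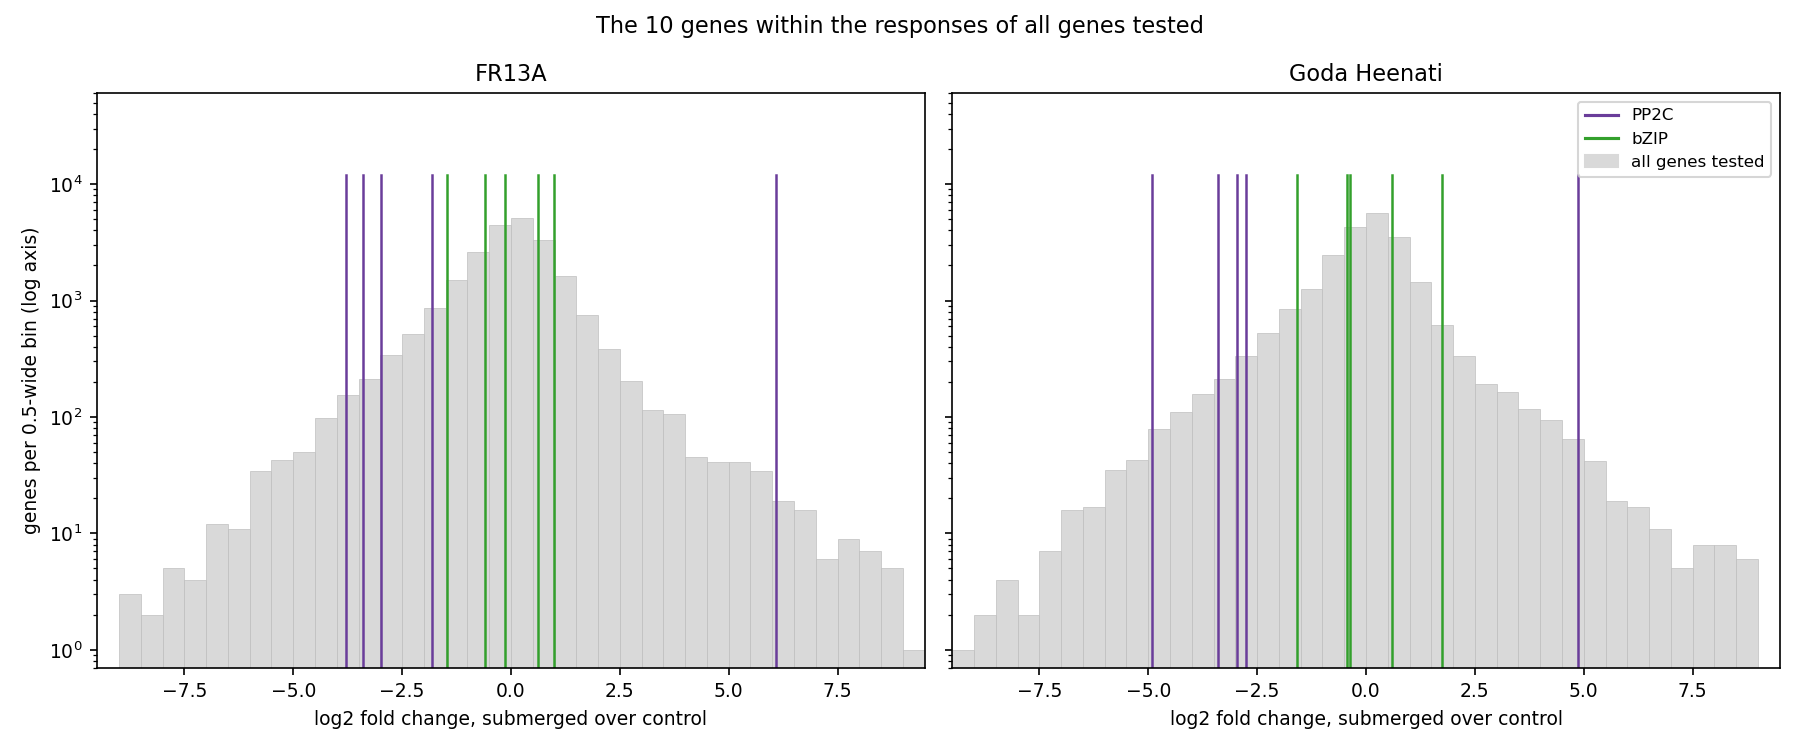
Distribution of the log2 response (submerged over control) of all 22744 genes tested in FR13A (left) and Goda Heenati (right), in bins 0.5 wide with counts on a log axis, with the 5 PP2C genes as purple lines and the 5 bZIP genes as green lines. The bZIP lines lie between -1.58 and 1.74, 4 PP2C lines lie in the left flank between -4.92 and -1.81, and Os05g0572700 lies in the right tail at fitted values of 6.09 and 4.86, whose control side was not well above background.

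The cultivars were then compared. For none of the 10 genes was the response called different between FR13A and Goda Heenati (limma adjusted p = 0.9999 for each, 1 of 10 with an unadjusted p under 0.05), where 0.0923% of all genes were. With the slide as a block the lowest adjusted p among the 10 was 0.492, for Os01g0859300. For Os05g0572700 both responses are lower bounds, so their difference was not measured. Among the other PP2Cs the difference was 1.13 for Os01g0656200 (95% interval -0.93 to 3.18) and 0.94 for Os09g0325700 (95% interval -0.69 to 2.57), and intervals of this width hold differences of several-fold. These intervals do not use the slide. With the slide as a block the SE was 0.48 in place of 0.93 for Os01g0656200 (limma adjusted p = 0.591), whose slides gave 0.58, 1.08 and 1.71. For Os09g0325700 it was 0.78 in place of 0.74 (adjusted p = 0.831), and the slides gave 1.02, 1.10 and 0.70.

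In control leaves, none of the 10 genes was called between FR13A and Goda Heenati, where 8.45% of all genes were. Os05g0572700 was not well above background in either control group, so these give no comparison of its level. The control groups overlapped for 9 of the 10, and only for Os09g0456200 did every FR13A control array lie above every Goda Heenati control array (0.59 ± 0.33, limma adjusted p = 0.495), against 10.4% of all genes. Os01g0583100 was at 0.78 ± 0.50 in this comparison (adjusted p = 0.612).

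In submerged leaves, 1 of the 10 genes was called between FR13A and Goda Heenati, where 10.2% of all genes were called and 4.93% were called higher in FR13A. This was Os05g0572700, at -2.38, -1.24 and -1.17 in FR13A, against -4.40, -3.62 and -2.67 in Goda Heenati. Every FR13A array was brighter, by 1.49 to 2.39 slide by slide, and the difference was 1.97 ± 0.47 (3.91-fold higher, limma adjusted p = 0.0198). The call was lost without FR13A submerged replicate 2 (1.79, adjusted p = 0.0856), FR13A submerged replicate 3 (1.75, adjusted p = 0.0755), Goda Heenati submerged replicate 1 (1.55, adjusted p = 0.071) or Goda Heenati submerged replicate 2 (1.94, adjusted p = 0.0679).

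The submerged FR13A arrays lay wholly above the submerged Goda Heenati arrays for 4 of the 10 genes, against 12.0% of all genes. Beside Os05g0572700 these were Os01g0656200, Os01g0583100 and Os06g0211200. For Os01g0656200 the difference was 1.82 ± 0.66 (limma adjusted p = 0.122), and on the 3 slides 1.04, 1.55 and 2.88. With the slide as a block it was called higher in FR13A (adjusted p = 0.00652). For Os01g0583100 the difference was 1.19 ± 0.50 (adjusted p = 0.194), and for Os06g0211200 it was 0.59 ± 0.27 (adjusted p = 0.246). With the slide as a block the adjusted p for Os06g0211200 was 0.0239, at a difference under 2-fold. Ordered by mean scaled signal, Os01g0656200 and Os01g0583100 both stood lowest in submerged Goda Heenati (-5.12 and -3.16), then came submerged FR13A (-3.30 and -1.97), control Goda Heenati (-0.20 and 0.24) and control FR13A (0.50 and 1.02). The 2 control groups, as neighbours in that order, overlapped for both genes.

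**Figure D4:**
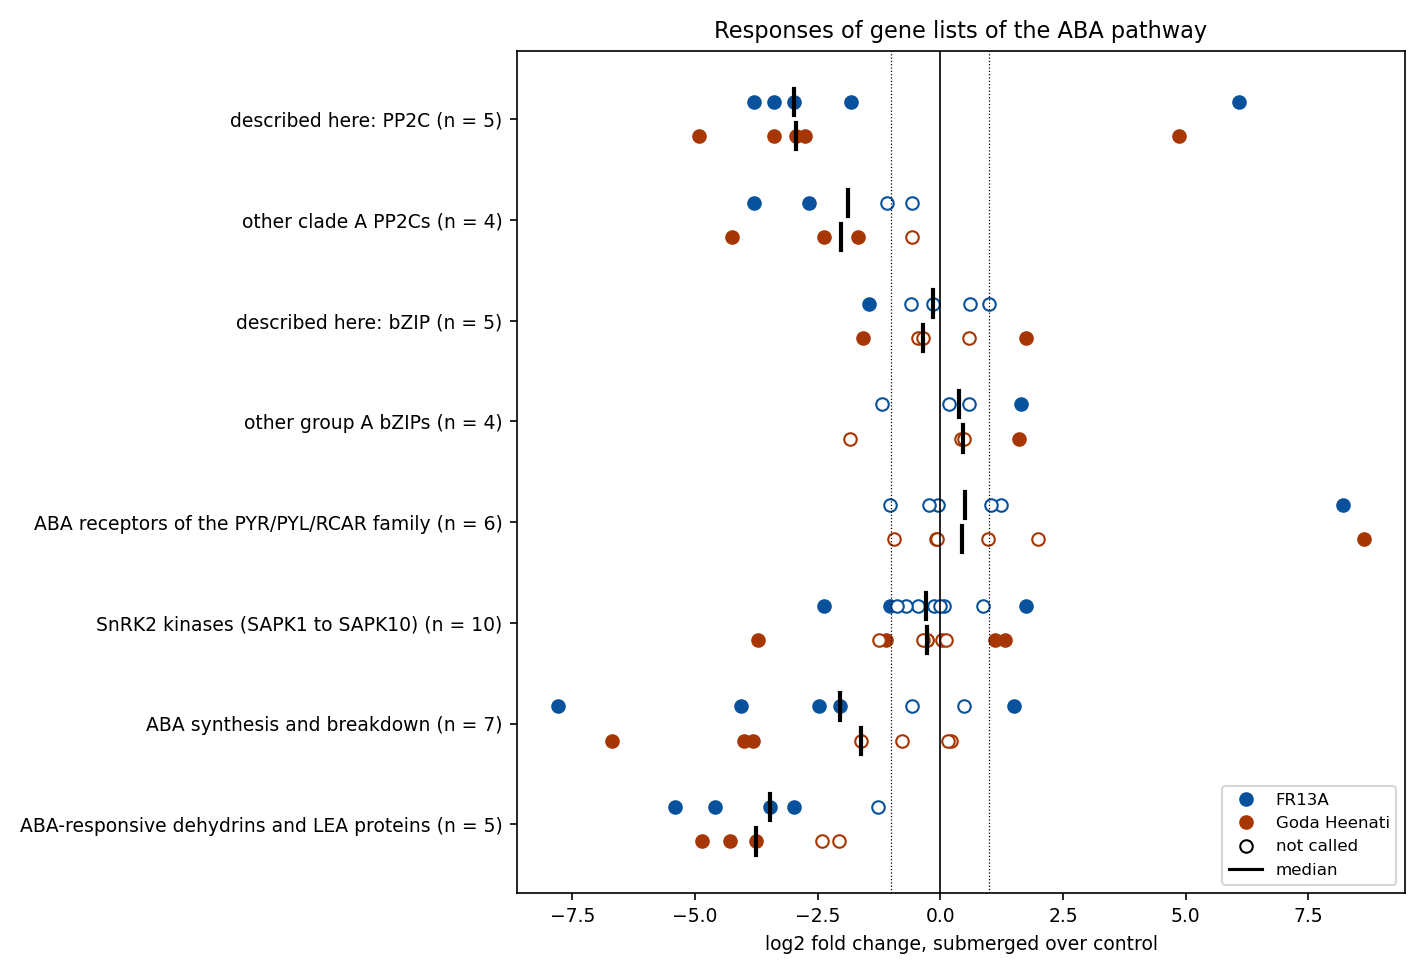
Log2 response (submerged over control) of each measured gene of the ABA pathway lists, with FR13A in blue above Goda Heenati in brown, filled points for called genes, open points for genes not called, a black bar for the list's median and dotted lines at a factor of 2; genes not well above background in a group are drawn at fitted values. The PP2C and the dehydrin and LEA lists have medians between -3.75 and -1.88 in both cultivars, while the bZIP, receptor and SnRK2 lists have medians within 0.50 of 0.

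The rest of the pathway was read from lists of loci whose classes come from general knowledge of the rice genome and not from the files. Beside the list counts below, 21.8% of all genes tested were called in FR13A and 20.6% in Goda Heenati. Whether any list held more calls than other genes was not tested. Among the other clade A PP2Cs, 4 of 5 were measured. In FR13A none was called higher and 2 were called lower, with a median response of -1.88, and in Goda Heenati none was called higher and 3 lower, with a median of -2.03. Os01g0846300 fell in both cultivars, with responses of -2.67 ± 0.54 in FR13A (limma adjusted p = 0.00507) and -2.38 ± 0.54 in Goda Heenati (adjusted p = 0.0094). Os05g0457200 fell by 3.79 (adjusted p = 0.0259) in FR13A and by 4.24 (adjusted p = 0.0165) in Goda Heenati on the log2 scale. It was well above background on 1 of 3 submerged arrays in each cultivar and on all control arrays, so it passed the filter only through the control groups. Each call was also lost with normexp background correction (-0.92, adjusted p = 0.464 in FR13A, and -2.89, adjusted p = 0.0699 in Goda Heenati). Each was lost without any 1 of 4 arrays, replicates 1 and 2 of both groups, with adjusted p up to 0.106 in FR13A and 0.0643 in Goda Heenati. Os05g0537400 was called lower in Goda Heenati (-1.67, adjusted p = 0.0357; up to 0.121 when 1 array was left out, the call being lost for 5 of the 6 Goda Heenati arrays, and with normexp at 0.0751) and not in FR13A (-1.08, adjusted p = 0.144). It was called in FR13A with the slide as a block (adjusted p = 0.0316), and without FR13A control replicate 3 (-1.58, adjusted p = 0.0429). Without slide 1, none of the other PP2Cs was called in either cultivar.

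Of 6 other group A bZIPs listed, 4 were measured, and 1 was called higher and none lower in each cultivar. It was Os01g0867300, which had a response of 1.65 ± 0.30 in FR13A (limma adjusted p = 0.00282) and 1.59 ± 0.30 in Goda Heenati (adjusted p = 0.00335). Without slide 1 its values were 1.62 (adjusted p = 0.0689) and 1.64 (adjusted p = 0.0674). The median response of the list was 0.38 in FR13A and 0.45 in Goda Heenati. With the slide as a block, 1 of the 4 was also called lower in Goda Heenati.

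Upstream of the phosphatases, 6 of 8 listed receptors were measured, and 1 was called higher and none lower in each cultivar. Os05g0473000 had a mean scaled log2 signal of 2.88 ± 0.94 in submerged FR13A, against -5.33 ± 1.16 in control FR13A (SD, n = 3 each). In Goda Heenati it was 3.61 ± 1.06 in submerged leaves, against -5.03 ± 0.76 in control leaves. Its probe was well above background on all 12 arrays, and the response was 8.21 ± 0.72 in FR13A (limma adjusted p = 5.09e-05) and 8.64 ± 0.72 in Goda Heenati (adjusted p = 3.88e-05). The list's median was 0.50 in FR13A and 0.45 in Goda Heenati, so this gene stood apart from the rest of its list. With the slide as a block, 2 receptors were called higher in each cultivar and 1 lower in FR13A.

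All 10 listed kinases of the SnRK2 family were measured. The list was not narrowed to the kinases that act between the phosphatases and the bZIPs. In FR13A 1 was called higher and 2 lower, and in Goda Heenati 2 higher and 2 lower, with medians of -0.29 and -0.27. Of all genes tested, 21.8% were called in FR13A and 20.6% in Goda Heenati. Os10g0564500 rose in both cultivars, by 1.75 ± 0.30 in FR13A (limma adjusted p = 0.00203) and 1.31 ± 0.30 in Goda Heenati (adjusted p = 0.00898). Os04g0432000 had responses of -2.37 ± 0.64 in FR13A (adjusted p = 0.0205) and -3.72 ± 0.64 in Goda Heenati (adjusted p = 0.0022). Its FR13A call was lost without FR13A submerged replicate 1 or 3 or FR13A control replicate 1 or 2, with adjusted p up to 0.0685, and with normexp background correction (-1.65, adjusted p = 0.205). Os01g0869900 was called in Goda Heenati (1.11, adjusted p = 0.00551) but fell short of 2-fold there with quantile normalization (0.968) and in the authors' deposited table (0.966). It was at 0.87 (adjusted p = 0.0173) in FR13A, where it passed 2-fold without FR13A submerged replicate 1 (1.02). Without slide 1, the calls of Os04g0432000 were lost in both cultivars (-2.12, adjusted p = 0.189 in FR13A, and -3.61, adjusted p = 0.0583 in Goda Heenati), and that of Os10g0564500 was lost in Goda Heenati (1.47, adjusted p = 0.0501).

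Of 8 genes listed for ABA synthesis and breakdown, 7 were measured. In FR13A 1 was called higher and 4 lower, and in Goda Heenati none was called higher and 3 were called lower, with medians of -2.04 and -1.61. The list mixes synthesis with breakdown, so its counts and medians give no direction for ABA itself. Os12g0617400 was well above background on every control array and on no submerged array, so it passed the filter only through the control groups. It was at least 132-fold lower in submerged FR13A (limma adjusted p = 1.18e-05) and at least 65.6-fold lower in submerged Goda Heenati (adjusted p = 2.95e-05). With normexp background correction the FR13A response was -3.50 and its call was lost (adjusted p = 0.0749). Os09g0457100 had responses of -2.47 ± 0.69 in FR13A (adjusted p = 0.024) and -3.81 ± 0.69 in Goda Heenati (adjusted p = 0.00296). It was well above background on 1 of 3 submerged Goda Heenati arrays and on every array of the other groups. The low end of its Goda Heenati fall thus lay near background. The FR13A call was lost without FR13A submerged replicate 1 or 2, or without any of the 3 FR13A control arrays, with adjusted p up to 0.0968. Without slide 1 it was called in neither cultivar (-2.14, adjusted p = 0.209 in FR13A, and -3.59, adjusted p = 0.0691 in Goda Heenati), nor with normexp background correction (-0.36, adjusted p = 0.748 in FR13A, and -1.80, adjusted p = 0.18 in Goda Heenati). Os08g0472800 rose in FR13A (1.50 ± 0.30, adjusted p = 0.00495) and was at 0.17 ± 0.30 in Goda Heenati (adjusted p = 0.727). The difference between these responses was 1.33 (95% interval 0.39 to 2.28), which did not pass the adjustment over all genes (adjusted p = 0.593). Without slide 1 the FR13A value was 1.55 (adjusted p = 0.0593).

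At the output end, 5 of 7 listed dehydrin and LEA genes were measured, and these proteins shield cells against damage from water loss. None was called higher, 4 were called lower in FR13A and 3 in Goda Heenati, and the medians were -3.47 and -3.75. Os11g0454200, Os11g0454000 and Os05g0542500 were well above background on all arrays of a group only in the control groups. They passed the filter only through the groups where they were high, so the filter favoured falls in these counts and medians. With the genes that were not well above background in submerged leaves set at their bounds, the medians were -2.74 in FR13A and -2.58 in Goda Heenati. Os02g0669100 had mean scaled log2 signals of -1.33 ± 0.74 in submerged FR13A, against 2.14 ± 0.30 in control FR13A, and of -1.68 ± 0.52 in submerged Goda Heenati, against 2.07 ± 0.26 in control Goda Heenati (SD, n = 3 each). The response was -3.47 ± 0.39 in FR13A (limma adjusted p = 0.000188) and -3.75 ± 0.39 in Goda Heenati (adjusted p = 0.000116). Os11g0454000 was not well above background on any submerged array and was at least 11.8-fold lower in FR13A (adjusted p = 0.000377) and at least 7.61-fold lower in Goda Heenati (adjusted p = 0.000642). Both calls were lost with normexp background correction (-0.51, adjusted p = 0.768 in FR13A, and -1.96, adjusted p = 0.358 in Goda Heenati). Os11g0454200 was likewise at least 3.82-fold lower in FR13A (adjusted p = 0.00973) and at least 5.99-fold lower in Goda Heenati (adjusted p = 0.00145). With normexp background correction its direction turned in FR13A (0.83, adjusted p = 0.61) and its call was lost in Goda Heenati (-1.63, adjusted p = 0.459), and with corrected normexp input the FR13A call was still lost (-1.19, adjusted p = 0.129).

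The gene whose 12 array values, each centred on the gene's mean, came closest to those of the PP2C Os05g0572700 was Os06g0142300, with a root mean square difference of 0.56 log2 units and responses of 5.42 in FR13A and 4.83 in Goda Heenati. For the bZIP Os01g0859300 it was Os03g0319100, with a root mean square difference of 0.23 log2 units and responses of 1.21 in FR13A and 1.35 in Goda Heenati. Such closeness over 12 arrays is a description that shares the arrays and the groups, and for Os05g0572700 it includes 6 control arrays where its probe was not well above background.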

How the data were processed

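RNA from 12 leaf samples was measured on 12 one-colour (Cy3) Agilent arrays with 45151 spots each. The authors extracted spot intensities with Feature Extraction 10.5.1.1, per the submitters' processing notes, and the processed signal used here is a deposited intensity on a linear scale, background already removed, per the file headers. A second file deposited by the authors lists log2 values of 42475 probes. Every column of it has a median of 10.019 and a correlation of at least 0.9975 with the log2 signal of its array, its normalization is not stated in those sources, and it was used as an alternative.

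From the scanner files, control spots and outlier-flagged spots were left out (42418 probes), and log2 processed signal minus the array's 75th percentile was averaged per probe. A probe was kept if, in 1 group or more, every array had it well above background (33071 probes), and the brightest probe on average stood for its gene, which gave 22744 genes. limma 3.58.1 in R 4.3.3 (lmFit, eBayes) was fitted over all of them with 4 group means (8 residual degrees of freedom). The p-values were Benjamini-Hochberg adjusted over all genes in each comparison. A call needs an adjusted p under 0.05 and a change of at least 2-fold. The scripts were tested on simulated data. The number of arrays limits the precision.

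Where a probe was not well above background on any array of a group, a fold is a lower bound, from the mean of the brighter group and, in the dim group, the mean over arrays of the higher of the probe's own signal and the lowest signal well above background. The bound holds for the main processing only. The adjusted p beside such a fold is from the fit to the measured values. Such probes passed the filter only through groups where they were brighter.

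The replicate number is the slide number, and it pairs the arrays: deviations from the group means correlated at 0.261 to 0.786 over the 18 pairs of arrays with the same number, and at -0.552 to 0.0301 over the 36 pairs with different numbers. Because deviations within a group sum to 0, a positive former range pushes the latter below 0, so the latter is not separate evidence of pairing. The slide as a block was an alternative. Its value stands beside a result where it changed a call or, for the 10 genes, brought the adjusted p under 0.05. Each slide holds 1 array of each group, so values within a slide are single differences.

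The members and lists were chosen with earlier results of these data known. All 10 members are named. From each list, up to 3 called genes with the smallest adjusted p are named, and for the PP2C and the bZIP with the smallest adjusted p the 1 most similar gene. Alternatives were normexp background correction (offset 50), quantile normalization, the authors' table, saturated spots left out, 2 other filters, the mean of a gene's probes, the slide as a block, leaving out slide 1, and leaving out each array in turn. The files hold no mean spot signal, so normexp used the median signal with the median local background. A form of normexp with corrected input was added after the data were seen.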

Additional observations from a re-analysis of the deposited data

How the results depend on the processing

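Of the 13 calls of the 10 genes in the 2 submergence comparisons, all kept direction and call with quantile normalization, the authors' table, saturated spots left out, no filter on dim probes, the mean of all kept probes, and the slide as a block. The 2 probes that are dim in control leaves, of Os05g0572700 and Os01g0859300, drop out when a probe must be well above background on all 12 arrays; the other 10 calls were kept, and the number of the 10 genes called higher became 0 in FR13A, in Goda Heenati and in FR13A against Goda Heenati under water. Quantile normalization and the authors' table called 2 of the 10 higher in FR13A in place of 1. With the replicate block, 2 of the 10 in place of 1 were called higher in submerged FR13A against submerged Goda Heenati, and it changed no other call of the 10. Without slide 1, 2 in place of 5 were called lower in each cultivar, with 2 samples a group.

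Normexp background correction lost 4 of the 13 calls. In FR13A these were Os09g0456200 (-1.30, adjusted p = 0.055), Os01g0656200 (-2.94, adjusted p = 0.056) and Os09g0325700 (-1.17, adjusted p = 0.21), which left 2 called lower, and in Goda Heenati Os01g0859300 (1.29, adjusted p = 0.464), which left 1 called higher. On FR13A submerged replicate 2, where 4 spots were dimmer than their local background, its output had a 1st percentile of 3374, against 59.1 to 219.5 on the other arrays. When such spots were given the array's median background, that percentile was 58.3 and all 13 calls were kept.

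Signs turned for some values, and the cause was not tested; all but that of Os11g0454200 were uncalled. With normexp these were Os06g0211200 in FR13A (0.00191), the differences in response of Os01g0859300 (0.82), Os08g0472000 (-0.11) and Os03g0268600 (0.15), and, in submerged FR13A against submerged Goda Heenati, Os02g0766700 (0.0429), Os01g0859300 (1.07) and Os03g0268600 (0.40). The first Os01g0859300 value had been -0.74 and the second -0.45. The LEA gene Os11g0454200, called lower in FR13A, turned to 0.83 with normexp. With corrected normexp input Os03g0268600 was at 0.00305 in submerged FR13A against submerged Goda Heenati. Without slide 1 it was at 0.18 in that comparison, and Os02g0766700 was at 0.0475. With quantile normalization the difference in response of Os08g0472000 was -0.00245.

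Leaving out 1 array at a time, the number of the 10 genes called in FR13A ran from 1 to 2 higher and from 4 to 5 lower, and in submerged FR13A against submerged Goda Heenati from 0 to 1 higher. The difference in response ran from -0.33 to 0.0903 for Os02g0766700, from -0.00273 to 0.43 for Os06g0211200, from -0.11 to 0.15 for Os08g0472000, from -0.26 to 0.33 for Os09g0456200, from -0.0468 to 0.86 for Os01g0583100 and from -0.92 to 0.27 for Os03g0268600. In FR13A against Goda Heenati, control leaves gave -0.12 to 0.23 for Os02g0766700 and -0.33 to 0.86 for Os03g0268600. Submerged leaves gave -0.22 to 0.10 for Os02g0766700, -0.34 to 0.37 for Os03g0268600 and -0.000249 to 0.65 for Os09g0325700.

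Counts over all genes moved by more than 1.5 times as follows. In FR13A, 2275 higher and 2682 lower became 1365 and 494 with normexp and 1204 and 1367 without slide 1. In Goda Heenati, 2065 higher and 2616 lower became 1084 and 824 with normexp and 1209 and 1422 without slide 1, and 1732 lower with the 12-array filter. The 9 higher and 12 lower differences in response became 35 and 48 with the block, 23 and 21 with quantile normalization, 25 and 23 in the authors' table, 0 and 0 with normexp or without slide 1, 0 and 1 with the 12-array filter, and 6 lower with no filter. Leaving out 1 array they ran from 3 to 16 higher and from 3 to 28 lower, and without FR13A submerged replicate 2 the FR13A count was 1487 higher. Between FR13A and Goda Heenati, 937 higher and 984 lower in control leaves became 383 and 162 with normexp and 392 and 362 with the 12-array filter, and 1122 higher and 1189 lower in submerged leaves became 532 and 76 with normexp and 508 and 487 with that filter.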
